A study of Homo sapiens with 30 samples.

Results

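HES1, HEY1, ID1, ID2, ID3, SMAD6 and SMAD7, 7 genes known to be switched on early by Notch or bone morphogenetic protein (BMP) signals, were followed in cultured human small airway epithelial (SAE) cells exposed to nanomaterials. Every probe set that the platform annotation pairs with 1 of these symbols and no other was taken, which gave 14 of the 22215 probe sets on the array and 7 of 11963 genes. HES1 had 3 probe sets, SMAD6 had 4, HEY1 and ID2 had 2 each, and ID1, ID3 and SMAD7 had 1 each. A further probe set that shares ID2 with another symbol was left out. Where a gene had several, its brightest probe set by the mean of all arrays is called its lead probe set, and a probe set is named by its array identifier.

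The cells, bought from Lonza, line the finest bronchioles, and were grown in the supplier's airway medium. They received multi-walled carbon nanotubes (MWCNT) or titanium dioxide nanobelts (TiO2) at 10 or 100 ug/ml, or no particle, for 24 h or 1 h. The 10 groups held 3 arrays each, 30 in all, which the labels call biological replicates. The labels do not say how these cultures relate to donors or passages, so p-values measure the spread between these cultures. All groups, unexposed ones included, were lifted with trypsin and plated in flasks, and no interval between plating and dosing is given. Time in the flask and time of exposure therefore cannot be told apart where 24 h is set against 1 h. Values are log2 expression as the authors deposited them, and a difference of 1 on this scale is a doubling. The number of arrays limits the precision.

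In Notch signalling a Jagged or Delta ligand on one cell binds a Notch receptor on its neighbour, and the receptor's inner part is cut free and joins the DNA-binding protein RBPJ in the nucleus. HES1 and HEY1 are its classic targets and encode repressors of transcription. In the airway epithelium Notch is known for steering basal cells towards secretory rather than ciliated fates. BMP ligands act through receptors that activate SMAD1, SMAD5 and SMAD9 together with SMAD4. ID1, ID2 and ID3, which tie up basic helix-loop-helix factors so that these cannot bind DNA, are direct BMP targets, as are SMAD6 and SMAD7, which block the pathway in turn.

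The 30 arrays separated by time before anything else: the first principal component held 56.9% of the variance and split the 15 arrays at 24 h from the 15 at 1 h. Replicate 1 of the 24 h controls stood furthest from its group, with a mean correlation of 0.995 to the other arrays of that group. Of 8 basal airway epithelial markers listed, 6 were measured, and CDH1, ITGB4 and KRT5 lay above the median of the table while EPCAM, KRT19 and KRT14 lay below it. Of the markers of other cell types, SFTPC (alveolar), COL1A1 (fibroblast) and CD14 (immune) lay above the median. PTPRC, the pan-leukocyte marker, CDH5 (endothelial) and SCGB1A1 (secretory) were all among the dimmer probe sets, at 3.50, 3.96 and 4.35. So was the basal marker KRT14, at 3.94. The basal marker KRT19, at 5.89, read below FOXJ1 and DNAI1 (ciliated, 6.56 and 6.43), MUC5AC (secretory, 6.59) and SFTPB (alveolar, 7.10). By level alone, the listed markers did not part basal from other cell types. A dim probe set on an array does not show that a transcript is missing. Of the 14 member probe sets, 4 lay above the median of 7.18 by their mean over all arrays, namely those of ID1 and ID3 and both brighter ones of HES1. Those of HES1 did so through the 1 h arrays. At 24 h they were dim, with highest arrays of 6.81 and 6.10, and in the 24 h controls they stood at percentiles 30.1 and 27.4.

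Most of the 7 genes were lower in unexposed cultures at 24 h than at 1 h. HES1 and ID1 fell by more than 4 on the log2 scale, SMAD7 and ID2 by about 1.5 and 1.4, ID3 by 0.58 and SMAD6 by 0.30, while HEY1 rose by 0.43. In all, 9 of the 14 member probe sets fell and 1 rose. Of all probe sets, 11.6% fell and 16.2% rose in this comparison. All tests are limma fits over the whole table with Benjamini-Hochberg adjusted p-values and a threshold of 0.05.

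HES1 (chromosome 3, 194136148 to 194138732 in GRCh38.p14), a repressor that also shuts off its own gene, fell furthest of the 7 genes. Its lead probe set 203394_s_at read 5.65, 5.89 and 5.64 in the 24 h controls, against 10.44, 10.21 and 10.70 in the 1 h controls. The difference was -4.72 ± 0.10 (SE, n = 3 each, adjusted p = 4.53e-21), a level 26.4-fold lower at 24 h, and the fall ranked 5 of 22215. Probe set 203395_s_at fell by 4.24 ± 0.11 (adjusted p = 6.73e-20), and the dim 203393_at fell by 0.40 ± 0.09 (adjusted p = 0.00230). The 250 bases before the start of HES1 are shown because they hold the sites through which Notch and HES1 itself are known to act on this gene. Capitals mark TGGGAA, the core to which RBPJ binds, and there were 2 matches on either strand, 84 and 70 bases before the start.
HES1 promoter, chr3:194135898-194136147, plus strand, GRCh38.p14: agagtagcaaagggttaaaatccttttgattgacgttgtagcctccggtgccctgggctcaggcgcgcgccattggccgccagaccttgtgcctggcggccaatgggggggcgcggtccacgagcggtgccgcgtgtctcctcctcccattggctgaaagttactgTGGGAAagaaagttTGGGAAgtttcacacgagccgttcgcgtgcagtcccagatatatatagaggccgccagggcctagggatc
The window also held 3 matches to the N box CACNAG, the kind of site bound by HES proteins, and no BMP-type SMAD site GGCGCC. Among 35116 RefSeq windows of the same length, 20.8% held TGGGAA, 32.0% held CACNAG and 16.4% held GGCGCC on either strand, so each is common. HES1 had a match to CAGAC, the SMAD binding element (38.0% of windows), and to TGACGT, the core of the cyclic AMP response element (7.1% of windows). No overlap between motifs was removed, and a match is a run of letters, not a measured site.

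ID1 (chromosome 20, 31605289 to 31606510) is the BMP target with the sharpest fall. It read 7.55, 8.32 and 8.22 in the 24 h controls, against 12.13, 12.18 and 12.09 in the 1 h controls, a difference of -4.10 ± 0.16 (adjusted p = 2.27e-16) that ranked 11 of 22215. The 24 h controls were spread more widely than those at 1 h, replicate 1 being the low one, yet the groups lay over 3 units apart. Its promoter is set beside that of HES1 because the levels of both genes ran together over the 10 groups. Capitals mark the TATA box, where matches to TATAAA on both strands overlap, 33 and 31 bases before the start.
ID1 promoter, chr20:31605039-31605288, plus strand, GRCh38.p14: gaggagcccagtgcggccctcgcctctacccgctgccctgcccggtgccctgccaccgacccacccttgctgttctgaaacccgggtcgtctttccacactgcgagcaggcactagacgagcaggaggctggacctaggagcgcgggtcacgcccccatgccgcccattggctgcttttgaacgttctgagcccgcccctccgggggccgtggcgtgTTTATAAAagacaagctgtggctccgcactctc
TATAAA was found in 10.7% of all windows. Of the other letters searched, this window of ID1 held the N box with 1 match, and it held neither the RBPJ core, the BMP-type SMAD site, the SMAD binding element nor the cyclic AMP core. Windows for 6 of the 7 genes could be matched, and SMAD7 had 3 of them for different starts. One of these 3 held 2 matches to TGGGAA, and none of the windows of ID2, ID3 and SMAD6 held it.

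The inhibitory SMADs differed from each other. SMAD7 (chromosome 18, 48919853 to 48950965), which blocks both BMP and TGF-beta receptors, read 6.26, 6.08 and 5.75 in the 24 h controls, against 7.55, 7.23 and 7.80 in the 1 h controls, and fell by 1.50 ± 0.13 (adjusted p = 4.98e-09). SMAD6 (chromosome 15, 66702236 to 66782849), which acts mainly on the BMP branch, read 6.48, 6.51 and 6.53 with its lead probe set 209886_s_at at 24 h, against 6.70, 6.96 and 6.77 at 1 h. It fell by 0.30 ± 0.09 (adjusted p = 0.0153), but without replicate 2 of the 1 h controls the difference was -0.23 (adjusted p = 0.107). The other 3 probe sets of SMAD6 gave -0.21, -0.09 and -0.08, and none passed.

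ID2 (chromosome 2, 8682056 to 8684461) fell with both probe sets. The lead one, 201565_s_at, read 6.39, 5.85 and 6.14 in the 24 h controls, against 7.75, 7.11 and 7.74 in the 1 h controls, a difference of -1.41 ± 0.16 (adjusted p = 2.71e-07). Replicate 2 was the lowest at both times, and the groups did not overlap. ID3 (chromosome 1, 23557926 to 23559501) fell by 0.58 ± 0.08 (adjusted p = 3.37e-06) and kept a high reading at 24 h, with 8.81, 8.84 and 8.73 against 9.40, 9.41 and 9.30 at 1 h. The 3 ID genes, whose proteins share partners, thus fell by very different amounts.

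HEY1 (chromosome 8, 79764010 to 79767767), the other Notch target of the set, ran the opposite way. Its lead probe set 218839_at read 6.21, 6.22 and 6.13 in the 24 h controls, against 5.87, 5.58 and 5.81 in the 1 h controls, a rise of 0.43 ± 0.09 (adjusted p = 0.000936). The second probe set, 44783_s_at, gave a difference of 0.31 ± 0.12 with overlapping groups (adjusted p = 0.0523). In bulk RNA of this kind, fewer cells with a transcript and less of it per cell cannot be told apart.

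**Figure D1:**
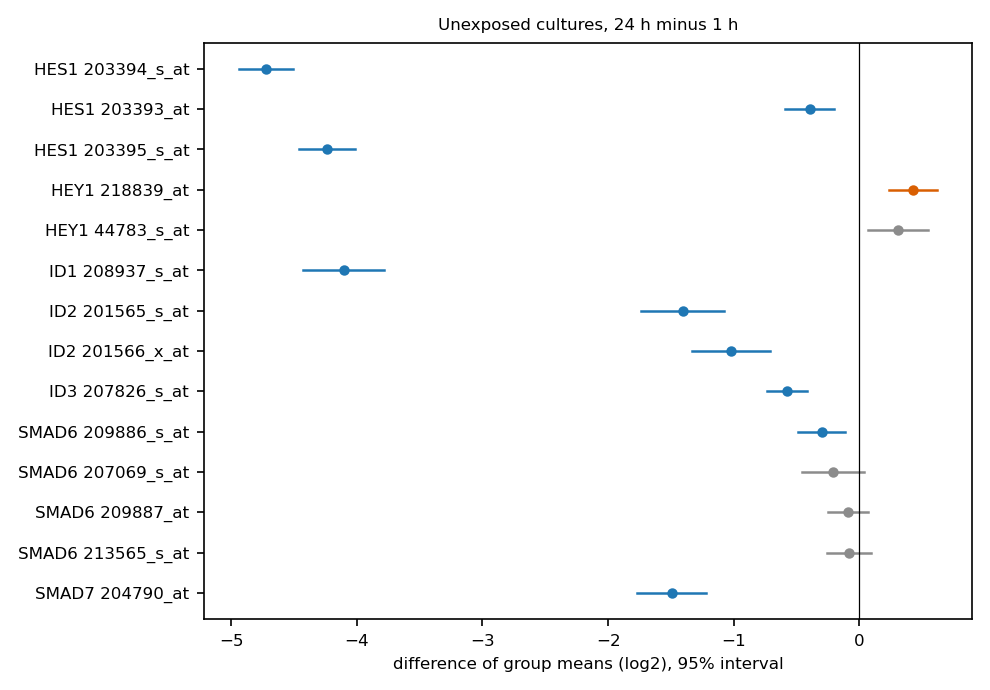
Difference between unexposed cultures at 24 h and at 1 h (log2, horizontal axis) for the 14 member probe sets, with 95% intervals from the limma fit and n = 3 arrays per group. Blue marks probe sets that fell, orange the 1 that rose and grey those that did not pass; HES1 203394_s_at and 203395_s_at and ID1 lie beyond -4.

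The time difference held in exposed cultures too. For 6 probe sets, the brighter pair of HES1, ID1, both of ID2 and SMAD7, every one of the 15 arrays at 24 h lay below every one of the 15 at 1 h, which 4.53% of all probe sets did. HES1 203394_s_at had a lowest, median and highest value of 5.46, 5.86 and 6.81 at 24 h, against 10.08, 10.34 and 10.70 at 1 h. ID1 had 7.26, 8.07 and 8.68 at 24 h, against 11.86, 12.04 and 12.18 at 1 h. Within a condition, the drop of HES1 203394_s_at was smallest with TiO2 at 100 ug/ml, at -3.72, and largest in unexposed cultures, at -4.72. That of 203395_s_at was also smallest with TiO2 at 100 ug/ml, at -3.50, but largest with TiO2 at 10 ug/ml, at -4.46. ID1 likewise dropped least with TiO2 at 100 ug/ml, by 3.39, and most with MWCNT at 100 ug/ml, by 4.38. SMAD7 dropped by 1.47 to 1.87 over the 5 conditions and ID2 201565_s_at by 1.22 to 1.62. For HEY1, ID3, SMAD6 and the dim HES1 probe set the arrays of the times overlapped.

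**Figure D2:**
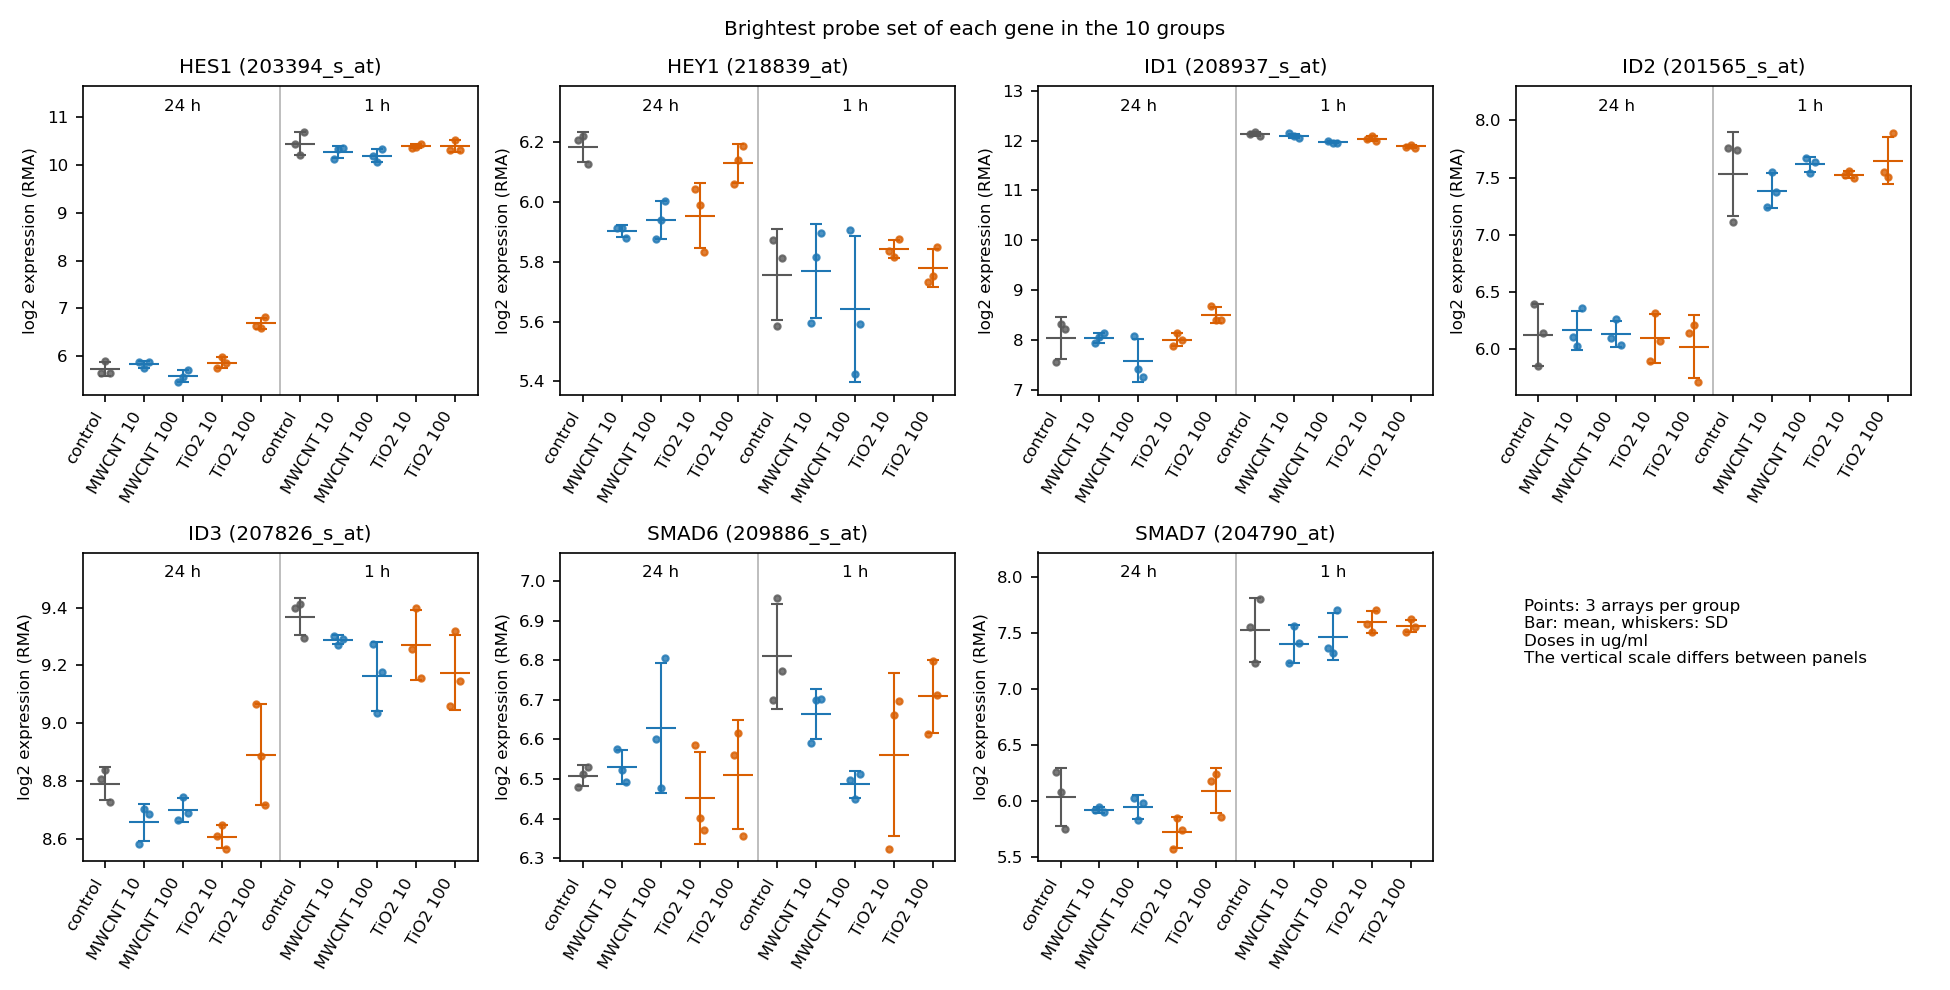
Log2 expression of the lead probe set of each of the 7 genes in every array (points), with the mean (bar) and SD (whiskers) of each group of 3; the 24 h groups are left of the 1 h groups, the doses are in ug/ml, and the vertical scale differs between panels. HES1, ID1, ID2 and SMAD7 lie lower at 24 h in all conditions, and within the 24 h groups HES1 is highest with TiO2 at 100 ug/ml.

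Whether the particles changed these genes was asked against the unexposed cultures of the same time. With TiO2 at 100 ug/ml for 24 h, HES1 rose and no other member passed the test. Its lead probe set 203394_s_at read 6.63, 6.59 and 6.81, against 5.65, 5.89 and 5.64 in the controls, a rise of 0.95 ± 0.10 (1.94-fold, adjusted p = 7.80e-06). The groups did not overlap, and the lowest exposed array was well above the highest control. Probe set 203395_s_at read 6.05, 5.94 and 6.10, against 5.40, 5.53 and 5.69, and rose by 0.49 ± 0.11 (adjusted p = 0.00730). The dim 203393_at did not pass, at 4.40 ± 0.16 against 4.39 ± 0.03 (SD). So 2 of 14 member probe sets rose, both of HES1, and none fell, where 3.82% of all probe sets rose and 6.55% fell. The rise of the lead probe set kept its call under each of 12 alternative settings (0.89 to 1.04), while that of 203395_s_at lost it when only the compared groups were fitted (adjusted p = 0.101). One such setting left out dim probe sets. HES1 met that filter through its 1 h arrays, since its 24 h arrays reached at most 6.81, under the table's median of 7.18. That setting therefore adds no support for HES1 at 24 h. The exposed level remained far under that of any 1 h group, the lowest array of which was at 10.08.

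ID1 was also higher but did not pass. It read 8.68, 8.41 and 8.40 with TiO2 at 100 ug/ml for 24 h, against 7.55, 8.32 and 8.22 in the controls, a difference of 0.47 ± 0.16 (adjusted p = 0.0568). The groups did not overlap, but replicate 1 of the controls, the array that stood apart, was far below the other 2. Without it the ID1 difference was 0.23 (adjusted p = 0.328). Without control replicate 2 or 3 it was 0.61 and 0.56 (adjusted p = 0.0265 and 0.0402). With all arrays kept it passed under cyclic loess (0.53, adjusted p = 0.0468), among the brighter probe sets alone (adjusted p = 0.0369) and with 1 probe set per gene (adjusted p = 0.0491). The call for ID1 thus changed both with the control arrays and with the processing. HES1 did not turn on that array: without it, 203394_s_at was 0.91 higher (adjusted p = 0.000108). The other members lay close to their controls, with lead differences of 0.10 for ID3, 0.06 for SMAD7, 0.00 for SMAD6, -0.06 for HEY1 and -0.10 for ID2, and the smallest adjusted p among all their probe sets was 0.148, for SMAD6 213565_s_at.

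The dose series of TiO2 at 24 h had its step between 10 and 100 ug/ml. HES1 203394_s_at averaged 5.73 ± 0.14, 5.86 ± 0.12 and 6.68 ± 0.12 (SD, n = 3) at 0, 10 and 100 ug/ml. At 100 against 10 ug/ml it rose by 0.82 ± 0.10 (adjusted p = 7.46e-05). Probe set 203395_s_at, at 5.54 ± 0.15, 5.21 ± 0.12 and 6.03 ± 0.08 over the same doses, rose by 0.82 ± 0.11 (adjusted p = 0.000110). These 2 were the member probe sets that rose with the higher dose, where 0.473% of all probe sets did, and none fell (0.257%). Counting those of HES1, 6 member probe sets were higher without overlap of the arrays, which 6.54% of all probe sets were, and 1 was lower, as were 8.86%. The other 4 higher ones were ID1, ID3, SMAD7 and HEY1 218839_at, with differences of 0.50, 0.28, 0.37 and 0.17 and adjusted p of 0.200, 0.108, 0.304 and 0.571. The lower one was the dim HES1 203393_at, at -0.26 (adjusted p = 0.301).

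No member passed against the controls with TiO2 at 10 ug/ml for 24 h, though 4.71% of all probe sets were called. Of the 14 member probe sets, 5 had an unadjusted p under 0.05, beside 5398 in the table. The probe sets of HES1 did not move as one: 203395_s_at was at -0.33 (adjusted p = 0.0738), 203393_at at 0.28 (adjusted p = 0.0830) and the lead one at 0.13 (adjusted p = 0.449). SMAD7 was at -0.31 ± 0.13 and ID3 at -0.18 ± 0.08, neither past the threshold (adjusted p = 0.155 and 0.152). HEY1 218839_at read 6.04, 5.99 and 5.83, against 6.21, 6.22 and 6.13 in the controls, and did not pass either.

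With MWCNT at 24 h no member passed at either dose, nor did any of the 22215 probe sets (0%). Of the 14, 2 had an unadjusted p under 0.05 at 100 ug/ml and 2 at 10 ug/ml, beside 1341 and 807 in the table. HES1 203394_s_at averaged 5.73 ± 0.14, 5.83 ± 0.07 and 5.58 ± 0.13 at 0, 10 and 100 ug/ml, and the 95% interval of the difference at 100 ug/ml was -0.36 to 0.07. ID1 read 8.07, 7.42 and 7.26 with MWCNT at 100 ug/ml, against 7.55, 8.32 and 8.22 in the controls, a difference of -0.45 ± 0.16 (adjusted p = 0.792). The ID1 arrays of these groups overlapped. With arrays weighted by their quality ID1 passed, at -0.66 (adjusted p = 0.00333), as did 1246 of all probe sets in place of 0. Between the MWCNT doses at 24 h no member passed, nor did any probe set (0%), with 3 members and 522 probe sets at an unadjusted p under 0.05. HEY1 218839_at was at -0.28 for MWCNT at 10 ug/ml (adjusted p = 0.999) and at -0.24 for 100 ug/ml (adjusted p = 0.792). The arrays of its second probe set, 44783_s_at, overlapped the controls at both doses. HEY1 218839_at was also lower than the controls with TiO2 at 10 ug/ml.

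Set side by side at 100 ug/ml and 24 h, the particles differed in HES1 and ID1. MWCNT cultures had 5.46, 5.56 and 5.71 for HES1 203394_s_at, against 6.63, 6.59 and 6.81 in TiO2 cultures, so HES1 was 2.15-fold lower with MWCNT (-1.10 ± 0.10, adjusted p = 6.21e-07). Probe set 203395_s_at was lower by 0.62 ± 0.11 (adjusted p = 0.00128). ID1 read 8.07, 7.42 and 7.26 with MWCNT, against 8.68, 8.41 and 8.40 with TiO2, and was 1.88-fold lower (-0.91 ± 0.16, adjusted p = 0.00115). Here neither gene's arrays overlapped, and both calls held in all 12 alternatives. For HES1 the setting without dim probe sets again adds no support. In all 3 of 14 member probe sets were lower with MWCNT and none was higher, where 3.58% of all probe sets were lower and 5.33% higher. The control arrays do not enter these differences. ID3 was at -0.19 (adjusted p = 0.117), HEY1 at -0.19 (adjusted p = 0.194) and SMAD7 at -0.15 (adjusted p = 0.515). At 10 ug/ml and 24 h no member differed between the particles, where 3.75% of all probe sets did, and the 95% interval for HES1 203394_s_at was -0.25 to 0.18.

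**Figure D3:**
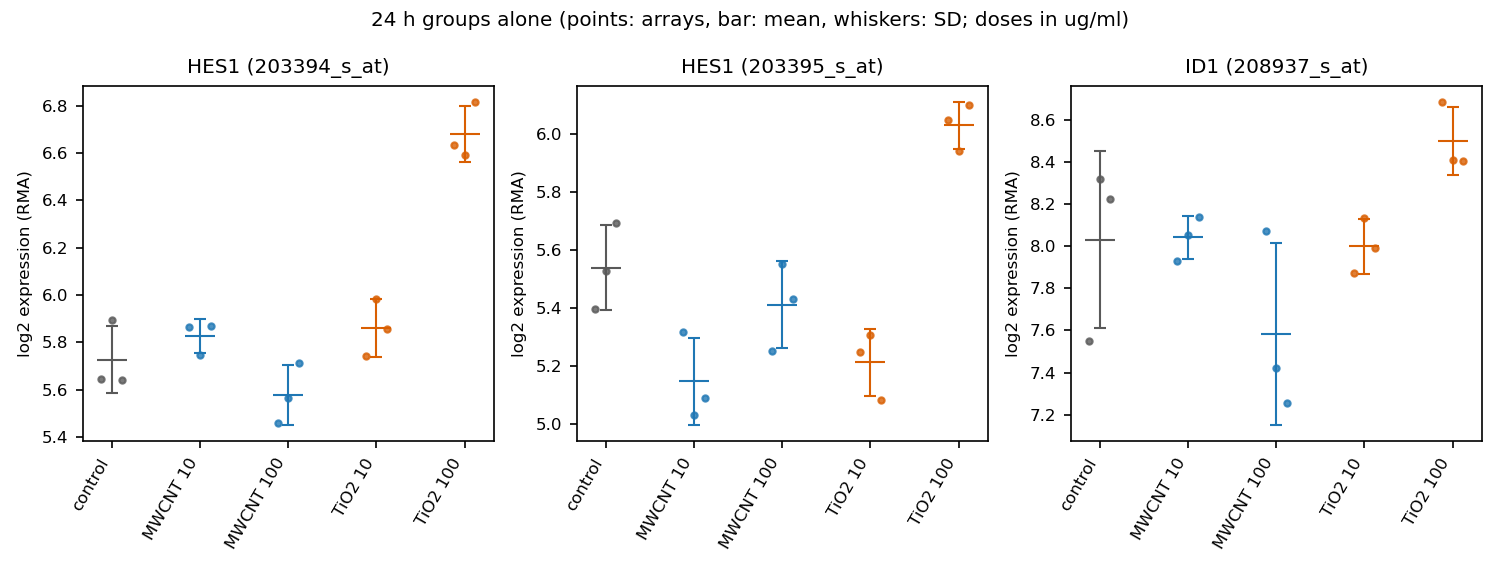
Log2 expression of HES1 (203394_s_at and 203395_s_at) and ID1 in the 24 h groups alone, with arrays as points, means as bars and SD as whiskers (n = 3 per group, doses in ug/ml). HES1 with TiO2 at 100 ug/ml stands above all other groups, and 1 control array of ID1 lies at 7.55, away from the other 2.

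At 1 h few members passed the test against the controls. Over the 14 member probe sets the median difference for MWCNT at 100 ug/ml was -0.12, against -0.02 over all probe sets. Of the 14, 4 had an unadjusted p under 0.05 there, beside 2537 in the table. With MWCNT at 100 ug/ml, 1 of 14 member probe sets fell, HES1 203395_s_at, and none rose, where 0.284% of all probe sets fell and 1.17% rose. It read 9.29, 9.24 and 9.36, against 9.88, 9.63 and 9.83 in the controls (-0.49 ± 0.11, adjusted p = 0.0177). The call is a fragile one. It was lost in 4 of 11 alternatives: without control replicate 1 (-0.44, adjusted p = 0.103) or 3 (-0.46, 0.0581), and without MWCNT replicate 1 (-0.48, 0.0553) or 2 (-0.46, 0.0854). The lead HES1 probe set was at -0.25 ± 0.10 (adjusted p = 0.335) and its arrays overlapped the controls. SMAD6 209886_s_at read 6.50, 6.45 and 6.51, against 6.70, 6.96 and 6.77, a difference of -0.32 ± 0.09 that did not pass (adjusted p = 0.0858). In 5 member probe sets, those of HES1 and SMAD6 just given with ID1, ID3 and HEY1 44783_s_at, all 3 exposed arrays lay below all 3 controls, which 9.9% of all probe sets did.

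With TiO2 at 100 ug/ml for 1 h no member passed, where 2.63% of all probe sets did. ID1 averaged 11.88 ± 0.03 against 12.13 ± 0.05 in the controls (SD), with no overlap, a difference of -0.25 ± 0.16 (adjusted p = 0.616). That SE is pooled over all groups, and the SD of ID1 reached 0.42 in the 24 h controls. The adjusted p therefore does not measure the narrower spread of the 1 h cultures. HES1 203394_s_at was at -0.05, with a 95% interval of -0.27 to 0.16. At 10 ug/ml for 1 h no member passed with MWCNT (0.0315% of all probe sets called) or TiO2 (1.27%). Between the particles at 1 h, no member passed at 100 ug/ml (0.018%) or 10 ug/ml (0.009%), nor did any between the doses at 1 h of MWCNT (0.491%) or TiO2 (0.23%).

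The effect of TiO2 at 100 ug/ml on HES1 differed between the times. The difference from the controls was 0.95 at 24 h and -0.05 at 1 h for 203394_s_at, and the gap of 1.01 ± 0.15 passed (adjusted p = 0.000387). For 203395_s_at it was 0.49 at 24 h and -0.25 at 1 h, a gap of 0.74 ± 0.15 (adjusted p = 0.0112). These 2 of 14 member probe sets had a higher effect at 24 h, as had 0.657% of all probe sets, and none had a lower one (0.779%). ID1, at 0.47 and -0.25, gave a gap of 0.72 ± 0.22 (adjusted p = 0.0980). For MWCNT at 100 ug/ml no member's effect differed between the times, where 0.446% of all probe sets did.

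**Figure D4:**
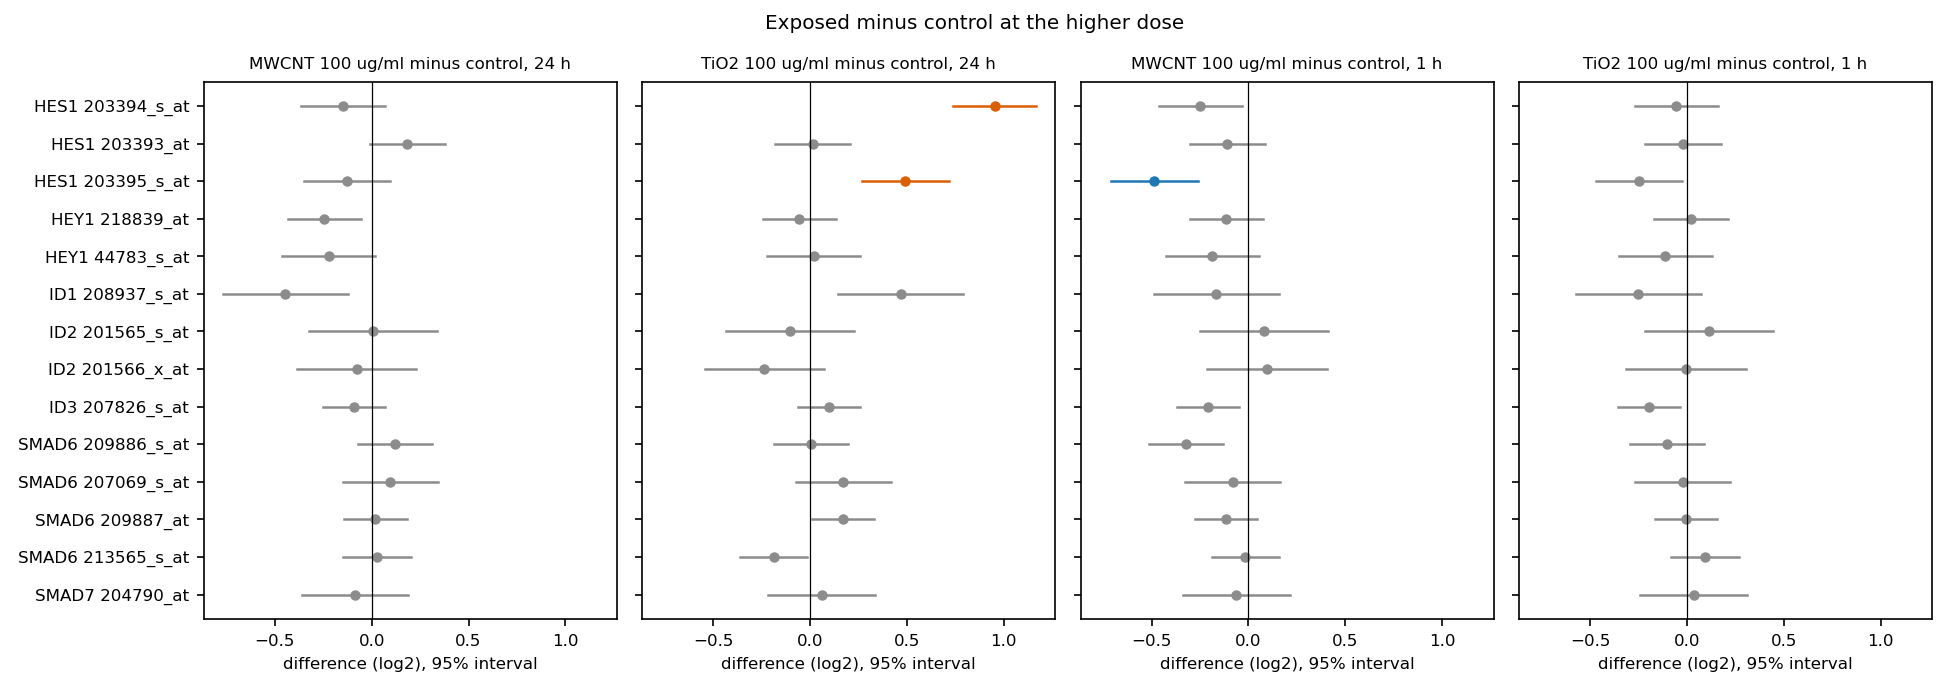
Difference between cultures with 100 ug/ml of a particle and the unexposed cultures of the same time (log2, horizontal axis) for the 14 member probe sets, with 95% intervals (n = 3 arrays per group); orange marks a rise past the threshold, blue a fall and grey the rest. HES1 203394_s_at and 203395_s_at rose with TiO2 at 24 h, and 203395_s_at alone fell with MWCNT at 1 h.

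In order of its group means, HES1 203394_s_at had the 5 groups of 1 h first, between 10.20 and 10.45, then TiO2 at 100 ug/ml for 24 h at 6.68, and then the other 4 groups of 24 h, between 5.58 and 5.86. The gaps on either side of the TiO2 group, 3.52 and 0.82, exceeded the pooled SD of the neighbours, about 0.12. Among the lowest 4, TiO2 at 10 ug/ml, MWCNT at 10 ug/ml and the controls followed each other within that spread. ID1 had the same group, TiO2 at 100 ug/ml, at the top of its 24 h groups with 8.50, and MWCNT at 100 ug/ml at the bottom with 7.58. ID2 had it at the bottom, at 6.03, and the 5 groups of 24 h followed each other within their spread.

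The other genes of both pathways were counted over 104 genes in 11 lists, of which 85 were measured, 1 lead probe set each. In the controls, 19 of the 85 fell and 4 rose at 24 h against 1 h, beside 11.7% and 18.6% of all genes, with medians of -0.11 for the lists and -0.01 for all genes. The falls were largest among further transcription targets. CCND1, the cyclin that drives the start of the cell cycle and a known Notch target, fell by 2.82. Its second probe set fell by only 0.47 (adjusted p = 0.00395). MYC, a growth regulator, fell by 2.42. CCND1 and MYC were the only 2 called of 5 measured in the list of other HES and HEY genes and Notch targets. In the TGF-beta arm KLF10, an early TGF-beta and BMP target, fell by 2.45, and the corepressor TGIF1 fell by 2.08. Among upstream parts, no Notch receptor of 4 and no BMP receptor of 7 passed, while 2 of 3 Notch ligands and 4 of 13 BMP ligands fell. JAG1 fell by 0.28 (adjusted p = 0.0227) and JAG2 fell by 0.17 (adjusted p = 0.0392). Neither ligand kept its call with each array left out, JAG1 reaching an adjusted p of 0.180 without 24 h control replicate 2 and JAG2 one of 0.189 without 24 h control replicate 1. The other 3 probe sets of JAG1 fell too, by 0.32, 0.43 and 0.37 (adjusted p = 0.0311, 0.00358 and 0.00193). Of the BMP ligands BMP4 fell by 0.46 and GDF7 fell by 0.36, and both kept their calls with each array left out. BMP10 fell by 0.27 and BMP7 fell by 0.25, and neither kept its call (adjusted p up to 0.0917 and 0.279). In other lists, the antagonist GREM1 fell by 0.53 (without control replicate 1 of 1 h, -0.40, adjusted p = 0.0616) and TOB1, which restrains SMAD signalling, fell by 0.64. FSTL3, in the same list, fell by 0.65 (adjusted p = 2.55e-06). SMAD1, which carries the BMP signal, rose by 0.34. TCF4, a helix-loop-helix partner of the ID proteins, rose by 0.71 (adjusted p = 0.000247). Its other probe sets rose by 0.04 to 0.45, and not all of them passed. Of these 23 calls 15 held with each array left out in turn.

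At 24 h with TiO2 at 100 ug/ml, 7 of the 85 rose and 5 fell, beside 3.73% and 7.72% of all genes, with medians of -0.02 for the lists and -0.03 for all genes. KLF10 read 10.49, 10.37 and 10.28, against 9.91, 9.62 and 9.92 in the controls, and rose by 0.57 ± 0.10 (adjusted p = 0.00162). The order of its groups at 24 h began like that of HES1, with this group above the others. FST and FSTL3, secreted binders of activin, rose by 0.35 and 0.29. DTX4, a ubiquitin ligase of the Notch pathway, and POFUT1, which puts the O-fucose on Notch receptors, fell by 0.26 and 0.22. KLF10, POFUT1 and DTX4 were the 3 calls of 12 that held with each array left out. DTX4 lost its call under cyclic loess (-0.17, adjusted p = 0.0703), and all 3 lost theirs when only the compared groups were fitted (adjusted p = 0.101 for KLF10, 0.152 for POFUT1 and 0.145 for DTX4). FST lost its call without control replicate 3 (0.23, adjusted p = 0.0905) or TiO2 replicate 1 (0.31, adjusted p = 0.0677). FSTL3 kept it without control replicate 2 and lost it without any other single array of the comparison (adjusted p from 0.0628 to 0.0987). No Notch ligand of 3, no Notch receptor of 4 and no nuclear factor of 9 passed. None of the 85 passed with MWCNT at 24 h. TiO2 at 10 ug/ml for 24 h gave 2 rises and 2 falls (2.11% and 2.8% of all genes). None of these calls held with each array left out.

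At 1 h and 100 ug/ml, the clearest change among the listed genes with MWCNT was in JAG1, a ligand of Notch. With TiO2 it was in GREM1. JAG1 read 10.91, 10.87 and 10.92 with MWCNT at 100 ug/ml, against 10.18, 10.00 and 10.14 in the controls, and rose by 0.79 ± 0.09 (adjusted p = 4.48e-06). With TiO2 at 100 ug/ml it read 10.65, 10.40 and 10.59 and rose by 0.44 ± 0.09 (adjusted p = 0.00538), a call lost without control replicate 2 (0.38, adjusted p = 0.0529) and when only the compared groups were fitted (adjusted p = 0.0661). Both comparisons share the same control arrays, and the difference between the particles did not pass. Of the other 3 JAG1 probe sets, 209098_s_at and 216268_s_at rose with both particles, and 209097_s_at did not (-0.20 with MWCNT, -0.12 with TiO2). At 24 h JAG1 passed in no comparison of exposed cultures with controls. No probe set of HES1 or HEY1, the Notch targets among the members, rose past the threshold at 1 h. With MWCNT at 100 ug/ml, JAG1, SKIL and TLE3 were the 3 of 85 that rose (1.15% of all genes) and none fell (0.376%). With TiO2 at 100 ug/ml, JAG1, GREM1, SKIL and TGFBR3 were the 4 that rose (1.79%), and none fell (0.385%). GREM1, which traps BMP ligands outside the cell, read 6.81, 6.59 and 6.96 with TiO2, against 6.13, 5.62 and 5.86 (0.92 ± 0.15, adjusted p = 0.000468), and its second probe set rose by 1.01. With each array left out in turn, JAG1 alone kept its call among those with MWCNT, and GREM1 alone among those with TiO2.

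By the likeness of their 10 group means (Pearson r over 10 groups, 1165 or 1166 candidate genes), the genes closest to each member were named. These groups fall into separate clusters of 24 h and 1 h, so r mostly records that split. HES1 was closest to PHLDA1, ID1 and DUSP4 (r = 0.998 each), and ID1 to HES1, SIK1 and FOS (0.998, 0.998 and 0.997). SMAD7 was closest to KLF4, GPRC5A and LGALSL, ID2 to RHOF, FJX1 and ASB1, and ID3 to SLC35C1, TNFRSF1A and EPAS1, with r between 0.982 and 0.998. HEY1 and SMAD6, with smaller ranges, had weaker neighbours: SRD5A1, PSPC1 and ZNF277 for HEY1 (0.883 to 0.886), and TRIM16, ELL and TSPAN4 for SMAD6 (0.753 to 0.778).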

How the data were processed

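The authors deposited log2 expression values per probe set, made with RMA (robust multi-array average) per the submitters' processing notes; its version is not given in the sources used here. RMA corrects background, scales arrays to equal distributions and summarises probes, which can compress differences of dim or bright probe sets. No further normalization was applied. Gene symbols came from the platform annotation, and genome positions and promoters from RefSeq (GRCh38.p14).

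Of 22277 probe sets, 62 controls were dropped. Group means of 10 groups were fitted in limma 3.58.1 (R 4.3.3, statmod 1.5.0) on all 30 arrays, with two-sided tests, adjusted over 22215 probe sets within each of 19 comparisons. With 3 arrays a group, exact permutation reaches no p below 0.10, so calls rest on the spread pooled over groups. Array medians ran between 7.15 and 7.21. The fit was tested on simulated data. Python 3.11.15 with matplotlib 3.10.9 drew the figures.

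Members and lists were chosen with earlier results of these data known. All member probe sets are described. From each list, up to 4 called genes with the largest differences could be named per comparison with a control, and 3 genes of like pattern per member, among lead probe sets above the table's median whose group means spanned 0.5 or more.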

Additional observations from a re-analysis of the deposited data

Results flagged for a closer look

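The effect of TiO2 at 100 ug/ml on HES1 differed between 24 h and 1 h by a test of that difference. The gap was 1.01 ± 0.15 for 203394_s_at (adjusted p = 0.000387 over all probe sets) and 0.74 ± 0.15 for 203395_s_at (adjusted p = 0.0112). For both, the 3 exposed arrays were above all 3 controls at 24 h and overlapped the controls at 1 h. For 203395_s_at the overlap at 1 h was marginal, with the highest exposed array at 9.62534 and the lowest control at 9.62532. Its difference at 1 h was -0.25 (limma, unadjusted p = 0.0317, adjusted p = 0.366), against -0.05 for 203394_s_at. Part of the gap of 203395_s_at thus came from lower exposed values at 1 h.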

How the results depend on the processing

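Of 3037 values of single member probe sets under the alternatives, 3001 kept their side of the threshold, 7 lost a call and 29 gained one. None of the called ones changed sign, while a value without a call could change sign and still count as kept. Leaving out the dimmer probe sets (11122 remained) left 4 member calls in unexposed cultures at 24 h against 1 h, since fewer member probe sets were tested. Fitting only the groups compared left 1 member call for TiO2 at 100 ug/ml against controls at 24 h and 1 for its difference between the times. Weighting arrays by their quality (0.290 to 5.30) gave 2 calls for MWCNT at 100 ug/ml at 1 h; against the 24 h controls it gave 1 and 2 for MWCNT at 10 and 100 ug/ml, and 2 and 4 for TiO2 at 10 and 100 ug/ml. Between the particles at 24 h it gave 6 at 100 ug/ml and 1 at 10 ug/ml. With 1 probe set per gene, 2 lead probe sets passed for TiO2 at 100 ug/ml at 24 h. With single arrays left out, member calls ranged over 0 to 1 for MWCNT at 100 ug/ml at 1 h, 2 to 4 for TiO2 at 100 ug/ml at 24 h, and 0 to 1 between the particles at 10 ug/ml and 24 h. ID1 with TiO2 at 100 ug/ml at 24 h, at an adjusted p of 0.0568, passed under cyclic loess (0.0468) and the dim filter (0.0369). The causes of these moves, other than the dim filter, were not tested.

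Counts over all probe sets moved more. For TiO2 at 100 ug/ml at 24 h, 2304 probe sets were called, against 1260 under cyclic loess (713 higher and 547 lower, in place of 848 and 1456), 12 with only the groups compared, 5314 with array weights and 1200 without control replicate 1. For TiO2 at 10 ug/ml at 24 h the 1047 calls became 340 under cyclic loess, 0 with only the groups compared, 3498 with array weights and 74 without control replicate 1. Between the particles at 100 ug/ml and 24 h the 1979 calls became 1138 under cyclic loess (438 higher and 700 lower, in place of 1183 and 796) and 4844 with array weights. At 10 ug/ml the 833 became 392 under cyclic loess and 0 with only the groups compared. That last setting also left 2896 of 6194 for unexposed cultures over time, 27 of 162 for the TiO2 doses at 24 h, 180 of 323 and 317 of 585 for MWCNT and TiO2 at 100 ug/ml at 1 h, and 40 of 319 for the TiO2 difference between the times. MWCNT at 100 ug/ml at 24 h had 1246 calls with array weights in place of 0. Correlations between samples with the same number ran from -0.235 to 0.326 over 51 pairs, with mixed signs in most comparisons. For unexposed cultures at 24 h against 1 h they were all positive (0.317, 0.145 and 0.087). The same held at 1 h for TiO2 at 100 ug/ml against controls (0.013, 0.136 and 0.152). It also held between the 1 h doses of MWCNT (0.081, 0.062 and 0.028) and of TiO2 (0.017, 0.167 and 0.139). A replicate block moved no count of member calls. With it, MWCNT at 10 ug/ml at 1 h had 11 calls in place of 7 over all probe sets. The dim probe set of HES1 and all of SMAD6 and HEY1 read below the table's median. At 24 h every array of the brighter HES1 probe sets did so too.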
